A study of Mus musculus with 7 samples.

Results

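The 9 genes described here are the ligands, receptors and matrix partners of transforming growth factor beta (TGF-beta), chosen by symbol: Tgfb1, Tgfb2, Tgfb3, Tgfbr1, Tgfbr2, Tgfbr3, Ltbp1, Thbs1 and Tgfbi. All 9 were found among the 23282 entries of the deposited count table, and 8 of them had enough counts to be tested with 13122 genes in all. The libraries came from glioblastoma, a malignant brain tumour, of adult C57BL/6 mice, with the tumour cells gated in a cell sorter on tdTomato, a red fluorescent protein. One group was 3 libraries of WT genotype and the other was 4 libraries of FYN-KO genotype (Fyn-KO here), in which Fyn, a Src family tyrosine kinase, is knocked out. The sources used here do not give how the tumours were started, which part of Fyn was altered or what drives tdTomato. Libraries were made by QuantSeq, a method that counts tags at the 3' ends of transcripts with a poly(A) tail, and levels are given as CPM, counts per 1000000 counts of the library.

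TGF-beta is secreted as an inactive complex in which the ligand dimer is held by its own propeptide, and latent binding proteins such as Ltbp1 fix this complex to the extracellular matrix. Thrombospondin 1, the product of Thbs1, can release the active ligand. The ligand then brings together the type II receptor Tgfbr2 and the type I receptor Tgfbr1, with Tgfbr3 (betaglycan) as a co-receptor, and the type I receptor phosphorylates SMAD transcription factors. Tgfbi encodes a secreted matrix protein induced by TGF-beta. In glioblastoma this pathway is known for its part in invasion, mesenchymal gene expression and immune suppression.

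The groups differed in more than Fyn. Depth was 11911864 to 16371244 counts in the WT and 8976745 to 10396507 in the Fyn-KO libraries, and a count of 0 allows up to 0.183 to 0.252 CPM in a WT and 0.289 to 0.334 CPM in a Fyn-KO library (3 counts, counting error only). Fyn stood at 1121 ± 448 CPM (mean ± SD, n = 3) in WT and 119 ± 49.5 CPM (n = 4) in Fyn-KO. Detection was uneven among the WT libraries: of 4827 genes at 100 CPM or more in 1 WT library, 2002 (41.5%) lay under 1 CPM in another, against 1 of 2524 genes (0.0396%) in Fyn-KO. The 8 glioma and oligodendrocyte progenitor markers, Olig2 and Sox10 among them, summed to 6671 to 11669 CPM in the WT libraries and 152 to 843 CPM in the Fyn-KO libraries, so the Fyn-KO libraries held little of the RNA that marks the labelled cells. The 10 markers of steroid-producing cells summed to 4.46 to 285 CPM in the WT libraries and 22041 to 25309 CPM in the Fyn-KO libraries, with 5 of them (Nr5a1, Fshr, Lhcgr, Cyp19a1 and Cyp17a1) at 0 in all WT libraries. Fibroblast markers (6 genes, with Lum, Fap and Pi16 at 0 in WT) summed to 0 to 0.839 and 128 to 149 CPM. Mural cell markers (6 genes, with Kcnj8 at 0 in WT) summed to 4.15 to 354 and 223 to 298 CPM. Summed macrophage and microglia markers overlapped between the groups, at 202 to 574 and 370 to 469 CPM, as did endothelial markers, at 1.10 to 834 and 409 to 464 CPM. Summed platelet markers were higher in WT (5 genes, 243 to 756 against 50.3 to 91.8 CPM), but the list was mixed. Ppbp and Gp9 were at 0 in WT, and of 3 tested platelet markers 1 rose in Fyn-KO, 1 fell and 1 did not pass. Lung epithelial markers were also higher in WT (148 to 916 against 0.107 to 12.2 CPM, with Sftpa1, Sftpb and Sftpd at 0 in Fyn-KO). The glioma, steroid-producing, fibroblast, platelet and lung sums thus separated the groups, as several results below do. The mural, macrophage and endothelial sums did not. WT replicate 3 set the upper end of the mural sum, at 354 CPM against 7.51 and 4.15 in WT replicates 1 and 2. Of the 6 mural markers, 5 were higher in Fyn-KO without overlap and none lower. For the macrophage and endothelial markers these were 4 of 12 and 3 of 8, also with none lower, beside 30.1% of all tested genes higher. The part of these markers in the results below was not tested. Whether the Fyn-KO columns hold the cells their labels name was not settled, so each difference below is between the libraries as labelled, in which Fyn knockout and these markers cannot be told apart. In sorted cells measured in bulk, fewer cells of a type and less RNA per cell cannot be told apart.

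Upstream sequences are shown for the genes on which the results turn, 2 that rose in Fyn-KO (Ltbp1, with its 2 listed starts, and Tgfbi) and 1 whose values overlapped between the groups (Tgfbr2). They are from RefSeq on GRCm38.p6, where 6 of the 9 genes had an entry, and run 5' to 3' up to a listed start. Capitals mark matches on either strand to 5 motifs, CAGAC (the SMAD box), TGACGTCA (the cAMP response element), TGANTCA (the AP-1 site), GGGCGG (the GC box) and TATAAA (the TATA box), and no matches overlapped.
Ltbp1, start 1, chr17:75005279-75005528, plus strand: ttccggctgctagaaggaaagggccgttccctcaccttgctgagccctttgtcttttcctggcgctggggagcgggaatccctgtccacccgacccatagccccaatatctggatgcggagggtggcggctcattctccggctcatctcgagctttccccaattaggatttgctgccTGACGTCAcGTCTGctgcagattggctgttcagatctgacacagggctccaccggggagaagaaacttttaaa
Ltbp1, start 2, chr17:75178531-75178780, plus strand: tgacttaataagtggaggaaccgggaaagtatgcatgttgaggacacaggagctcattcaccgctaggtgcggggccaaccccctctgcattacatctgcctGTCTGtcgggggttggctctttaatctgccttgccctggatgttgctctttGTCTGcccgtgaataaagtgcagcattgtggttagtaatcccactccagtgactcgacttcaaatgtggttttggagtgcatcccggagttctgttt
Tgfbi, chr13:56609336-56609522, plus strand: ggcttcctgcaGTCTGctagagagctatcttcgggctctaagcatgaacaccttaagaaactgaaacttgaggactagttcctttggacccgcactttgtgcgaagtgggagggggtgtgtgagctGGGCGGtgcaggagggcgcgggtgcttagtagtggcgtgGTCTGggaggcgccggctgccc
Tgfbr2, chr9:116175364-116175613, minus strand: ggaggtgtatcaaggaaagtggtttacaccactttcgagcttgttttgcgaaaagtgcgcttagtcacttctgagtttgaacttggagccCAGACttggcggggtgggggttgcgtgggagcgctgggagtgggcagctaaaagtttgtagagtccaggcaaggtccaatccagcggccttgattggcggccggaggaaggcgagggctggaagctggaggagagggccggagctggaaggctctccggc
The sequence of Tgfbi is cut to 187 bases, where an annotated exon begins. The first start of Ltbp1 had the cAMP response element, with its first base 73 bases before the start, which 1.55% of 32851 windows of 250 bases held. SMAD boxes were in all 4 windows shown, 2 each in the second window of Ltbp1 and in that of Tgfbi and 1 each in the others. Among the windows not shown, that of Tgfb2 held 2 and the second of Tgfbr1 held 1. Those of Tgfb1 and of the first start of Tgfbr1 held 0, and 42.2% of all windows held 1 or more. The GC box was in the window of Tgfbi, against 32.7% of all windows, and the AP-1 site (6.75%) and the TATA box (12.4%) were in none of the 4.

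Of the 8 tested genes, 4 rose in Fyn-KO (Ltbp1, Thbs1, Tgfbi and Tgfbr3), none fell and 4 did not pass (edgeR quasi-likelihood F test, two-sided, Benjamini-Hochberg adjusted p under 0.05 over all genes tested). Among all tested genes 19% were higher and 3.51% were lower by the same rule. CPM did not overlap between the groups, with Fyn-KO higher, for 6 of the 9 genes, and with Fyn-KO lower for none, against 30.1% and 7.32% of all tested genes. The genes were picked with these data known and 3 of the 4 that rose had 2 or 3 counts in all WT libraries together, so these shares describe them and test nothing. The fitted log2 fold changes of the 8 had a median of 7.29, and of 6.90 with Thbs1, which had no count in WT, at its bound, against 0.45 for all tested genes.

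**Figure D1:**
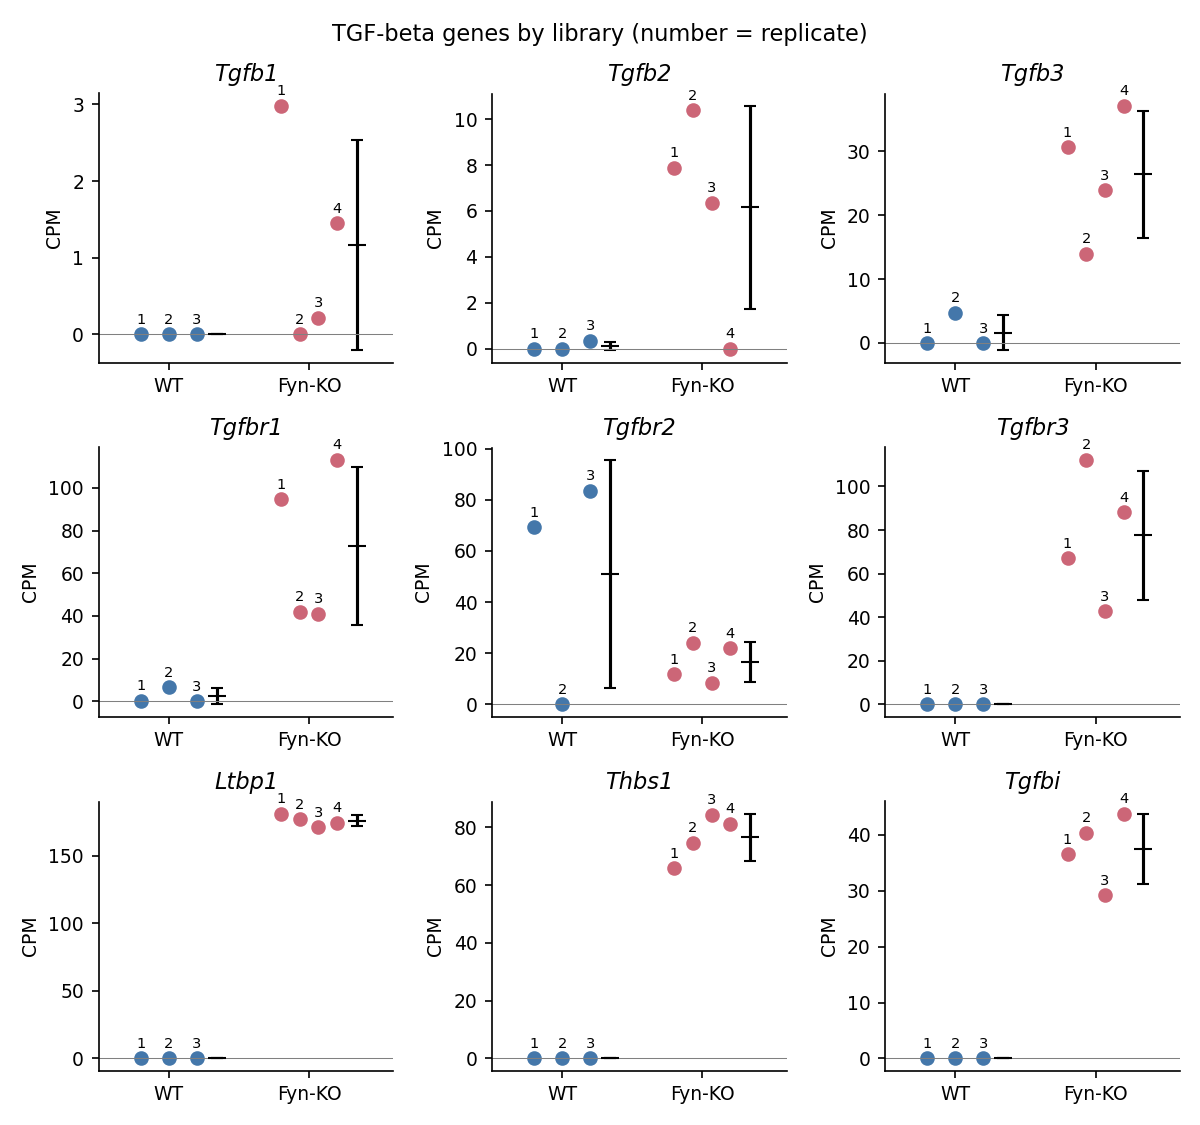
CPM of each of the 9 genes (y axis, own scale per gene, from 0) in the WT (blue) and Fyn-KO (red) libraries; points are libraries numbered by replicate, and the bar beside them is the mean ± SD (n = 3 and n = 4). The Ltbp1 points of Fyn-KO lie between 171 and 181 CPM, and Tgfbr2 is the gene with WT libraries above the Fyn-KO ones.

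Ltbp1, the latent binding protein that stores TGF-beta in the matrix, was nearly absent from WT and had almost the same level in each Fyn-KO library. The gene (ENSMUSG00000001870.16, GRCm38 chromosome 17, 75005568 to 75392512, plus strand) had 0.0783, 0 and 0.168 CPM in the WT libraries, which is 1, 0 and 2 counts. It stood at 181, 177, 171 and 175 CPM in the 4 Fyn-KO libraries. No WT library reached even 1 CPM, so the groups lay far apart. The ratio of pooled counts was 2412 with a 95% exact counting interval of 825 to 11697, the fitted log2 fold change was 10.77 ± 1.38 (approximate SE) and the adjusted p was 0.0121. The exact two-sided permutation p of its CPM was 0.0286, the smallest p possible with 3 and 4 libraries. The coefficient of variation over the Fyn-KO libraries was 2.38%, close to the 2.45% that counting alone gives at this depth. Only 0.219% of the 9597 tested genes with 10 or more CPM in the Fyn-KO libraries varied less, and their median was 27.7%.

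Thbs1, the matrix glycoprotein that can activate latent TGF-beta, had no count in any WT library. The gene (ENSMUSG00000040152.8, chromosome 2, 118111876 to 118127133, plus strand) stood at 65.8, 74.7, 84.4 and 81.2 CPM in the Fyn-KO libraries (76.5 ± 8.19, n = 4). Every Fyn-KO library was thus above every WT library. The mean was at least 343-fold higher than the WT floor of 3 counts per library (0.223 CPM), with an adjusted p of 0.0121 in the edgeR test and an exact permutation p of 0.0286. Its fitted log2 fold change of 12.76 is not a measured size, since the WT counts set only the bound.

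Tgfbi, the matrix protein named for its induction by TGF-beta, had 1 count each in WT replicates 2 and 3 and none in replicate 1. The gene (ENSMUSG00000035493.10, chromosome 13, 56609523 to 56639562, plus strand) stood at 36.5, 40.4, 29.2 and 43.8 CPM in the Fyn-KO libraries (37.5 ± 6.25, n = 4). The lowest Fyn-KO library was still far above the highest WT library, at 0.0840 CPM. The ratio of pooled counts was 771 (95% exact counting interval 213 to 6372), the fitted log2 fold change 9.21 ± 1.67 and the edgeR adjusted p 0.0121. The exact permutation p was 0.0286.

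The calls of these 3 matrix genes and of Tgfbr3 were not made in every fit. None of them passed in limma-voom with quality weights (adjusted p 0.191 to 0.371), although their fitted changes stayed at 8.82 or more, and none can be tested among genes detected in both groups.

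**Figure D2:**
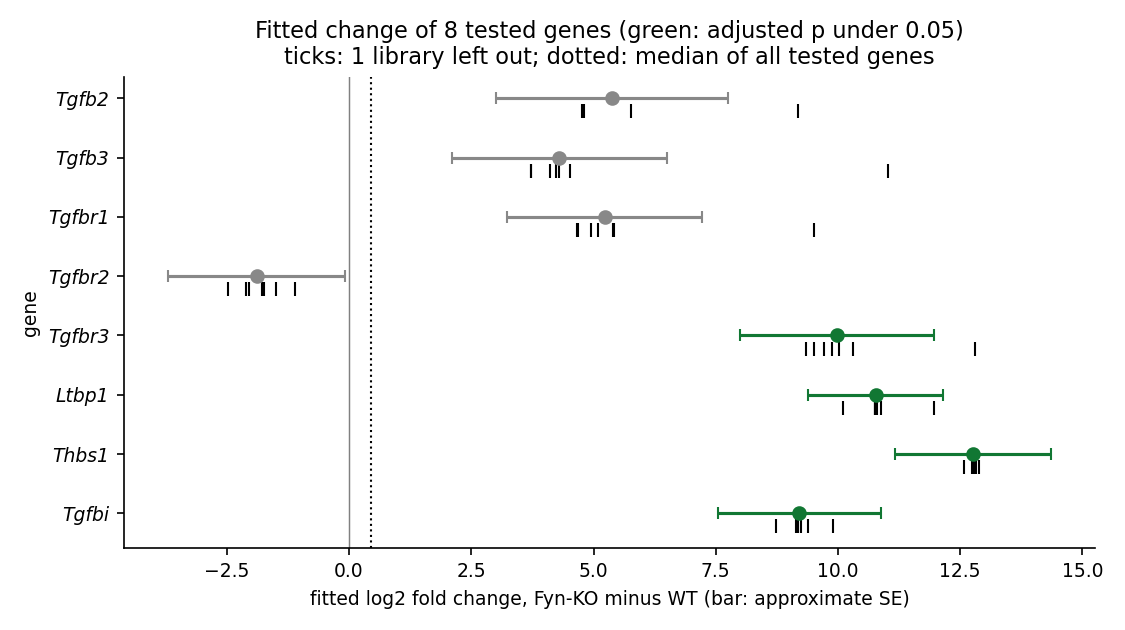
Fitted log2 fold change of the 8 tested genes (x axis, Fyn-KO minus WT) with its approximate SE, green where the adjusted p was under 0.05; ticks are fits with 1 library left out, and the dotted line is the median of all tested genes, 0.45. Tgfbr2 lies below 0 at -1.89 and the other 7 lie above. For Tgfb3 and Tgfbr1 1 tick, without WT replicate 2, lies far to the right at 11.02 and 9.52. For Tgfb2 and Tgfbr3 1 tick, without WT replicate 3, lies to the right at 9.18 and 12.81. The ticks at 11.02, 9.18 and 12.81 are from fits with no WT count of the gene and are not measured sizes.

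Among the receptors, the co-receptor rose, the type I receptor lay higher without passing the test, and the type II receptor was highest in 2 WT libraries. Tgfbr3, the proteoglycan co-receptor betaglycan (ENSMUSG00000029287.14, chromosome 5, 107106570 to 107289629, minus strand), had no count in WT replicates 1 and 2 and stood at 0.168 CPM in replicate 3. It stood at 67.0, 112, 42.8 and 88.1 CPM in the Fyn-KO libraries (77.5 ± 29.6, n = 4). The groups did not overlap, and the Fyn-KO libraries differed among themselves more than they did for Ltbp1. The ratio of pooled counts was 1613 (95% exact counting interval 446 to 13328), with a fitted log2 fold change of 9.97 ± 1.98, an edgeR adjusted p of 0.0121 and an exact permutation p of 0.0571.

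Tgfbr1, the type I receptor kinase (ENSMUSG00000007613.15, chromosome 4, 47353222 to 47414931, plus strand), stood at 0.157, 6.66 and 0 CPM in the WT libraries (2.27 ± 3.80, n = 3). In Fyn-KO it stood at 94.7, 41.9, 40.9 and 113 CPM (72.7 ± 36.9, n = 4), with replicates 1 and 4 more than 2 times as high as replicates 2 and 3. The groups did not overlap, and the Fyn-KO mean was 32.0 times the WT mean. The difference did not pass the edgeR test (log2 fold change 5.23 ± 1.997, adjusted p = 0.1004, exact permutation p = 0.0857), and it passed in DESeq2 (adjusted p = 0.00209). WT replicate 2 held 109 of the 111 WT counts, and without it the edgeR adjusted p was 0.00578 and the log2 fold change 9.52. That fit called 4585 of 13991 genes higher, and DESeq2 called 3564 of 13122 higher.

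Tgfbr2, the type II receptor kinase that binds the ligand first (ENSMUSG00000032440.13, chromosome 9, 116084293 to 116175360, minus strand), had the opposite order. It stood at 69.4, 0 and 83.5 CPM in the WT libraries (51.0 ± 44.7, n = 3) and at 11.8, 24.1, 8.43 and 22.1 CPM in the Fyn-KO libraries (16.6 ± 7.66, n = 4). WT replicates 1 and 3 lay above all Fyn-KO libraries and WT replicate 2, with no count among 16371244, lay below them, so the groups overlapped. The mean of WT was 3.07 times that of Fyn-KO, and the edgeR test did not call it (log2 fold change -1.89 ± 1.81, adjusted p = 0.575, exact permutation p = 0.257). Without WT replicate 2 the log2 fold change was -2.48 and the edgeR adjusted p 0.0391, in a fit that called 839 of 13991 genes lower. Of the 8 genes it alone reached 10 counts in both groups (2 or more WT and 3 or more Fyn-KO libraries), and in a fit of the 6446 genes that did, of which 0.807% were higher and 2.26% lower, its adjusted p was 0.802.

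Tags of both signalling receptors were found in every Fyn-KO library and in 1 WT library, where Tgfbr1 had 2 counts. WT replicate 1 held 2 counts of Tgfbr1 and 886 of Tgfbr2, WT replicate 2 held 109 and 0, and WT replicate 3 held 0 and 995. The Fyn-KO libraries held 889 and 111, 436 and 251, 374 and 77, and 1016 and 198. Each WT library thus had 1 of the receptors at 2 counts or fewer, and each Fyn-KO library had 77 or more of both. Counts of Tgfbr1 per count of Tgfbr2 ran from 1.74 in Fyn-KO replicate 2 to 8.01 in replicate 1.

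**Figure D3:**
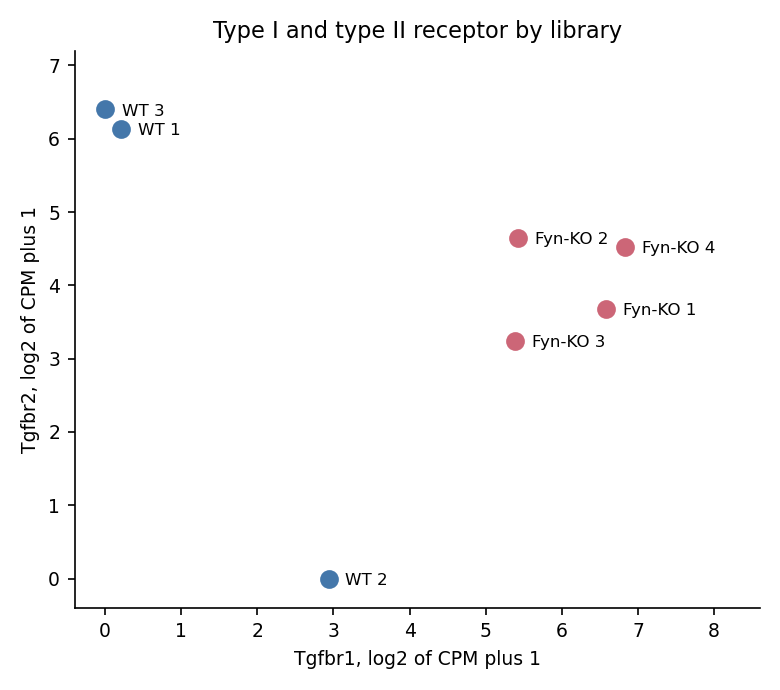
Tgfbr1 (x axis) against Tgfbr2 (y axis), both as log2 of CPM plus 1, with 1 labelled point per library, WT in blue and Fyn-KO in red. WT replicates 1 and 3 lie at the upper left, WT replicate 2 on the x axis with no Tgfbr2 count, and the 4 Fyn-KO libraries together at the right.

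Neither of the 2 tested ligands passed, and Tgfb1 was below the filter on low counts. Tgfb3, a ligand of mesenchymal and epithelial development (ENSMUSG00000021253.7, chromosome 12, 86056745 to 86079041, minus strand), stood at 0, 4.76 and 0 CPM in the WT libraries (1.59 ± 2.75, n = 3) and at 30.6, 13.9, 23.9 and 37.1 CPM in the Fyn-KO libraries (26.4 ± 9.89, n = 4). All Fyn-KO libraries were above all WT libraries, and the Fyn-KO mean was 16.6 times the WT mean. Its edgeR adjusted p was 0.230 (log2 fold change 4.30 ± 2.20, exact permutation p = 0.0571), and DESeq2 called it (adjusted p = 0.0364). All 78 WT counts came from replicate 2, the library that also held most of the Tgfbr1 counts. Without it the edgeR adjusted p was 0.00455 and the log2 fold change 11.02, not a measured size since no WT count was left. That fit called 4585 of 13991 genes higher. Ttll5, a tubulin polyglutamylase gene on the opposite strand, overlaps the last part of Tgfb3 and has 1341 counts in all libraries, and since the sources used here do not give the strand of counting, tags there cannot be told apart. No other gene that overlaps 1 of the 9 is listed in the table.

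Tgfb2, a ligand known in glioblastoma for suppressing immune cells (ENSMUSG00000039239.14, chromosome 1, 186622792 to 186705989, minus strand), stood at 0, 0 and 0.336 CPM in the WT libraries and at 7.88, 10.4, 6.35 and 0 CPM in the Fyn-KO libraries (6.16 ± 4.43, n = 4). Fyn-KO replicate 4 had no count, so the groups overlapped although the other 3 Fyn-KO libraries held 58 to 108 counts each. The log2 fold change was 5.38 ± 2.37 with an edgeR adjusted p of 0.157 and an exact permutation p of 0.143, and DESeq2 called it (adjusted p = 0.0381). Without WT replicate 3, which held all WT counts of Tgfb2, its log2 fold change was 9.18. That is not a measured size, and Tgfb2 still did not pass (edgeR adjusted p = 0.0947). An antisense gene, Gm29491, overlaps its start.

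Tgfb1, the ligand that immune cells and platelets release in quantity (ENSMUSG00000002603.15, chromosome 7, 25687002 to 25705077, plus strand), had no count in any WT library, which allows up to 0.183 to 0.252 CPM there. In Fyn-KO it had 28, 0, 2 and 13 counts, or 2.98, 0, 0.219 and 1.45 CPM (1.16 ± 1.37, n = 4). It was too low to be tested with this filter, and the exact permutation p of its CPM was 0.257. The Fyn-KO mean was at least 5.21-fold higher than the WT floor, a bound set by replicates 1 and 4. Its absence from WT stood beside summed macrophage markers of 202 to 574 CPM and platelet markers of 243 to 756 CPM in the same libraries. Of those markers, P2ry12 of the macrophage list and Ppbp and Gp9 of the platelet list were also at 0 in WT.

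The share of the other pathway genes that rose was near that of all genes. Over 7 lists of 95 genes in all, 87 were tested, of which 65 did not pass, 21 (24.1%) rose and 1 (1.15%) fell, against 19% and 3.51% of all tested genes. Of the 21 that rose, 16 had under 10 counts in each WT library. In limma-voom with quality weights 2 of the genes rose, and among genes detected in both groups 1 did. Their median log2 fold change was 1.79, against 0.45 for all tested genes. The counts and medians of each list below stand beside this median and the 19% higher and 3.51% lower of all tested genes. Of the called genes chosen by p from these lists and named below, only Dcn passed in limma-voom and only Dcn and Timp1 with the replicate block.

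In the list of latency, processing and activation, 2 of 12 tested genes rose and 10 did not pass. Lrrc32, which encodes the cell surface anchor GARP of latent TGF-beta, was at 0 in WT and stood at 12.9, 16.0, 3.50 and 15.2 CPM in the Fyn-KO libraries, at least 53.2-fold higher (edgeR adjusted p = 0.0121). Ltbp2, a relative of Ltbp1, was at 0 in WT and 4.07 ± 2.47 CPM (n = 4) in Fyn-KO (at least 18.2-fold higher, adjusted p = 0.0139). Without Fyn-KO replicate 1, 3 or 4, 1 gene of this list rose. Without WT replicate 2, 6 of 13 tested did, beside 4585 of 13991 genes in all. The list's median was 1.55, also with the genes without a WT count at their bound.

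Neither of the 2 tested relatives of Thbs1 passed. Thbs2 was at 0 in WT and 0, 5.39, 2.74 and 7.02 CPM in the Fyn-KO libraries (at least 17.0-fold higher, edgeR adjusted p = 0.0546), and without Fyn-KO replicate 1 it passed (adjusted p = 0.0238). Thbs4 stood at 0, 51.4 and 0 CPM in the WT libraries and at 17.6, 20.7, 15.1 and 22.4 CPM in the Fyn-KO libraries, so the WT libraries lay on both sides of the Fyn-KO ones (adjusted p = 0.940). Without WT replicate 2, which held all of its WT counts, its edgeR adjusted p was 0.00455, in a fit that called 4585 of 13991 genes higher.

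Of 9 tested co-receptors and binding proteins, 1 rose and 8 did not pass (median 2.27). The 1 was Dcn, decorin, a small matrix proteoglycan that binds TGF-beta, which stood at 0.470, 0 and 2.52 CPM in the WT libraries and at 567, 573, 458 and 518 CPM in the Fyn-KO libraries. The Fyn-KO mean was 531 times the WT mean (log2 fold change 8.71 ± 1.66, edgeR adjusted p = 0.0121). Dcn is also made by fibroblasts, whose summed markers lay at 128 to 149 CPM in the same Fyn-KO libraries. Without WT replicate 2 or 3, 5 and 6 of 10 tested genes of this list rose, beside 4585 of 13991 and 3121 of 14091 genes in all.

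Of 8 tested other type I and type II receptors of the superfamily, 2 rose and 6 did not pass (median 3.63). Amhr2, the type II receptor of anti-Müllerian hormone, was at 0 in WT and stood at 75.1, 48.6, 55.6 and 53.5 CPM in the Fyn-KO libraries, at least 261-fold higher (edgeR adjusted p = 0.0121). It is a known gene of gonadal cells, and the steroid-producing markers summed to 22041 to 25309 CPM in the same libraries. Acvr2b, an activin receptor, was at 0 in WT and 10.4 ± 3.18 CPM (n = 4) in Fyn-KO, at least 46.5-fold higher (adjusted p = 0.0121). Without WT replicate 2, 7 of 9 tested receptors rose, beside 4585 of 13991 genes in all.

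Of 8 tested SMAD proteins, 3 rose (Smad7, Smad6 and Smad9) and 5 did not pass (median 3.31, and 2.95 with Smad9 at its bound). Smad7, the inhibitory SMAD that TGF-beta itself induces, had 0, 3 and 0 counts in WT and stood at 7.25, 19.7, 18.5 and 21.2 CPM in the Fyn-KO libraries (ratio of pooled counts 228, 95% exact counting interval 77.8 to 1110, edgeR adjusted p = 0.0150). Smad6, the inhibitory SMAD of the BMP branch, stood at 0.104 ± 0.131 CPM (n = 3) in WT and 7.81 ± 3.20 CPM (n = 4) in Fyn-KO (adjusted p = 0.0267). Smad9, a SMAD of the BMP branch, was at 0 in WT and 3.82 ± 1.14 CPM in the Fyn-KO libraries (at least 17.1-fold higher, adjusted p = 0.0121). The call of Smad6 was lost with no filter on low counts (adjusted p = 0.0501), and those of all 3 in limma-voom (adjusted p 0.445 to 0.473) and with the replicate block (adjusted p 0.186 to 0.353).

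Smad2, Smad3 and Smad4, the receptor-activated SMADs of TGF-beta and their common partner, did not pass and are named after their values were seen. Smad2 stood at 0.0783, 6.41 and 0 CPM in the WT libraries and at 52.1, 57.6, 45.5 and 50.2 CPM in the Fyn-KO libraries (edgeR adjusted p = 0.138). Its groups did not overlap, the Fyn-KO mean was 23.7 times the WT mean and the exact permutation p was 0.0286. Smad3 stood at 93.9, 75.1 and 0.168 CPM in the WT libraries and 47.6, 59.2, 31.7 and 20.9 CPM in the Fyn-KO libraries (adjusted p = 0.903). Smad4 stood at 0.0783, 63.8 and 0.0840 CPM in the WT libraries and 56.2, 66.8, 46.4 and 81.1 CPM in the Fyn-KO libraries (adjusted p = 0.623). In Fyn-KO all 3 were present in every library, and in WT each had at least 1 library at 2 counts or fewer. Detection among the WT libraries was uneven for many genes, as given above. Without WT replicate 2, 5 of the 8 SMADs rose, beside 4585 of 13991 genes in all.

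Of 13 tested SMAD regulators, 1 rose, 1 fell and 11 did not pass (median -0.20). Nedd4l, a ubiquitin ligase that acts on activated SMADs, stood at 0.158 ± 0.154 CPM (n = 3) in WT and 17.8 ± 6.03 CPM (n = 4) in Fyn-KO (edgeR adjusted p = 0.0147). Pmepa1, a feedback inhibitor that TGF-beta induces, stood at 348, 198 and 440 CPM in the WT libraries and fell to 107, 100.1, 120 and 66.4 CPM in the Fyn-KO libraries. All WT libraries were above all Fyn-KO libraries, and the mean of WT was 3.34 times that of Fyn-KO (log2 fold change -1.90 ± 0.53, adjusted p = 0.0353). That call was lost without WT replicate 3 or without any 1 of the 4 Fyn-KO replicates (adjusted p 0.0538 to 0.0960), with log2 fold changes of -1.39 to -1.92, and among genes detected in both groups (adjusted p = 0.126).

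Among 35 tested genes known as targets of TGF-beta, 12 (34.3%) rose, none fell and 23 did not pass, with a median of 2.04, beside 19% of all tested genes higher and 3.51% lower. Timp1, an inhibitor of matrix metalloproteinases, stood at 0, 0.366 and 0 CPM in the WT libraries and at 491, 478, 385 and 455 CPM in the Fyn-KO libraries (log2 fold change 11.74 ± 1.325, edgeR adjusted p = 0.00833). Snai2, a transcription factor of mesenchymal transition, was at 0 in WT and 16.3 ± 7.33 CPM (n = 4) in Fyn-KO, at least 73.0-fold higher (adjusted p = 0.0121). Itga5, the fibronectin receptor subunit, was at 0 in WT and 4.09 ± 1.57 CPM in the Fyn-KO libraries (at least 18.3-fold higher, adjusted p = 0.0121). Angptl4, a secreted lipase inhibitor, stood at 0.321 ± 0.418 CPM (n = 3) and 89.9 ± 24.3 CPM (n = 4) (adjusted p = 0.0122). Without WT replicate 3, 19 of 36 tested targets rose, beside 3121 of 14091 genes in all. The number that rose was 7 without Fyn-KO replicate 1, 2 or 4. It was 6 with the replicate block, 1 in limma-voom with quality weights (Tsc22d1) and 1 of 19 among genes detected in both groups (Loxl2).

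Other targets, named after their values were seen, differed from each other in pattern. Acta2, smooth muscle actin, rose from 40.3, 53.3 and 1.34 CPM in the WT libraries to 377, 312, 210 and 331 CPM in the Fyn-KO libraries (edgeR adjusted p = 0.0430), beside summed mural markers of 7.51, 4.15 and 354 CPM in the WT and 223 to 298 CPM in the Fyn-KO libraries. Tsc22d1, a leucine zipper protein, rose from 700 ± 387 CPM (n = 3) to 2601 ± 84.9 CPM (n = 4) (adjusted p = 0.0245). Ctgf, a matrix growth factor, stood at 0.0783, 0 and 7.64 CPM in the WT libraries and 96.1, 89.5, 26.3 and 40.5 CPM in the Fyn-KO libraries and did not pass (adjusted p = 0.246). Zeb1, a transcription factor of mesenchymal transition, stood at 399.7, 229 and 259.9 CPM in the WT libraries and at 91.3, 74.8, 149.6 and 82.2 CPM in the Fyn-KO libraries, with no overlap and just short of the threshold (log2 fold change -1.64 ± 0.50, adjusted p = 0.0505). It was called lower with RLE factors, library sizes alone, a minimum count of 50, DESeq2, Rn45s left out, or without WT replicate 2 or Fyn-KO replicate 3 (adjusted p 0.0178 to 0.0496).

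**Figure D4:**
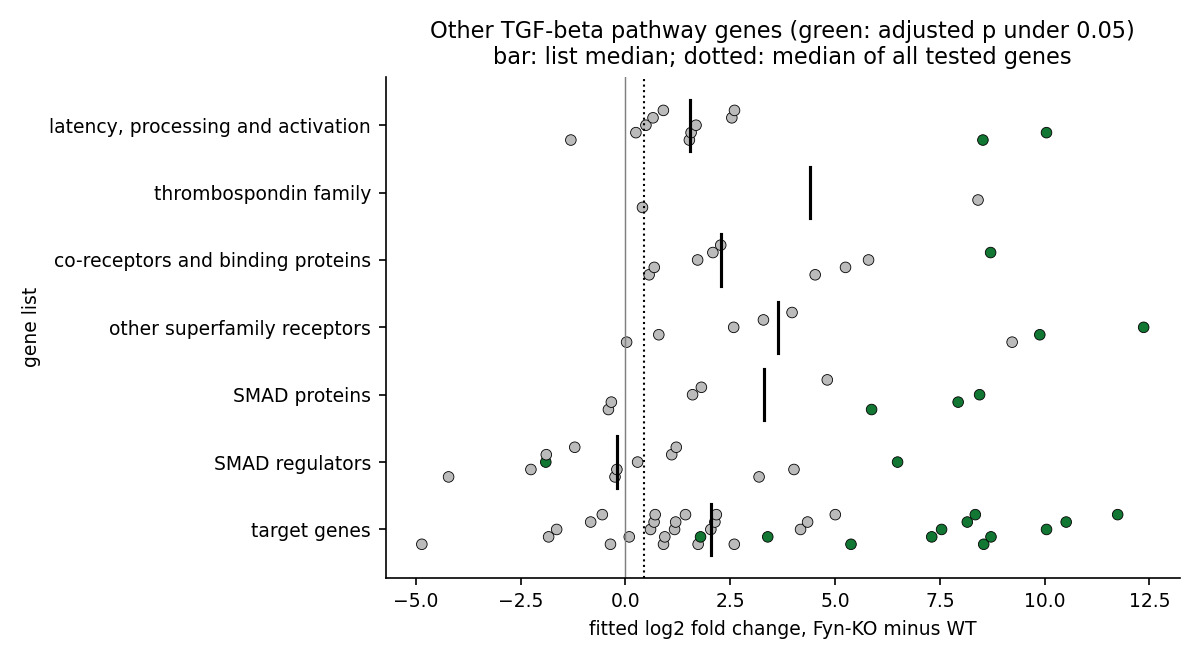
Fitted log2 fold change (x axis, Fyn-KO minus WT) of each tested gene in 7 other lists of the TGF-beta pathway (rows), green where the adjusted p was under 0.05, with the list median as a bar and the median of all tested genes, 0.45, dotted. Most of the 21 genes that rose lie at the far right of their lists, and the 1 that fell, Pmepa1, is among the SMAD regulators.

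The genes most like each of the 8 by profile were named by the smallest root mean square difference of log2 of CPM plus 1, both centred, over the 7 libraries, among 9714 genes with a mean of 10 CPM or more. Nearest to Ltbp1 were Crispld2, a secreted protein (0.10), and Ecm1, an extracellular matrix protein (0.16). Nearest to Thbs1 were Folr1, a folate receptor (0.11), and Lss, lanosterol synthase (0.11). Nearest to Tgfbi were Fam179b (0.081) and Rhox8, a homeobox gene (0.10), and nearest to Tgfbr3 were Tmem98 (0.12) and Dync1i1, a dynein subunit (0.19). Profiles of this shape were not particular to these genes, since of the 9714 genes 445 lay within 0.5 of Tgfbi, 159 of Thbs1, 126 of Tgfbr3 and 48 of Ltbp1. Tgfb3 lay nearest to Arap1 (0.23) and Ppp6c (0.24), and Tgfbr1 to Ezh1, a histone methyltransferase (0.35), and Vps26a (0.40). The genes nearest to Tgfbr2, which like it had their lowest level in WT replicate 2, were Cenpa, a centromere histone (0.31), and Mettl3, an RNA methyltransferase (0.37). Tgfb2 had no gene within 0.5, and its nearest were Emp2 (0.83) and Tmem69 (0.84).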

How the data were processed

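The 7 libraries, 3 labelled WT and 4 labelled Fyn-KO, are labelled as sorted tumour cells. The submitters' processing notes name Bowtie2, bedtools, DESeq2 1.32.0 and the build mm10 (GRCm38); the sources used here do not give the annotation or the strand of counting. The deposited values are whole-number counts per gene, without molecular identifiers, so intervals and floors cover counting error only. The column of WT replicate 3 fits the labels of 2 WT samples and was therefore placed in the WT group only. The labels do not say that replicates are paired.

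Here genes were filtered with filterByExpr (10 counts in enough libraries, 15 in all), scaled by TMM and tested with the quasi-likelihood F test of edgeR 4.0.16 in R 4.3.3. The code was also run on simulated counts that had the same spread for all genes and libraries. Detection among the WT libraries was far more uneven than that, so the simulation does not check the calls made here. The approximate SE divides the size of the log2 fold change by the root of F. P-values measure only the spread between these libraries. Permutation tests enumerated 35 splits. The alternatives tried were no filter, a minimum count of 50, RLE factors, library sizes alone, genes detected in both groups, DESeq2 1.42.0, limma-voom (limma 3.58.1), a replicate block, Rn45s left out and each library left out. Coordinates are from GENCODE on GRCm38. All 9 genes are named, with up to 4 called genes by p of each other pathway list (2 where none was called) and 2 profile neighbours each. The genes, lists and rule were chosen with earlier results of these data known, and the motifs after the sequences were seen. A result of 1 list gene is not reported here.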

Additional observations from a re-analysis of the deposited data

How the results depend on the processing

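The direction of 7 of the 8 tested TGF-beta genes held in each alternative that tested them. Tgfbr2 was reversed in limma-voom with quality weights (log2 fold change 3.50, adjusted p = 0.443). Thbs4 was reversed without WT replicate 1 and without WT replicate 3 (-0.18 in both, edgeR adjusted p 0.957 and 0.960). With 1 library left out the log2 fold change of Thbs4 reached 10.54, not a measured size since that fit had no WT count of Thbs4. Against 4 higher and 0 lower, the TGF-beta genes called were 7 higher in DESeq2, 0 in limma-voom, 1 (Ltbp1) with the replicate block, 0 among genes detected in both groups, and 4 to 6 higher and 0 to 1 lower with 1 library left out (6 and 1 without WT replicate 2). Of the other pathway genes, against 21 higher and 1 lower, those higher were 32 in DESeq2, 2 in limma-voom, 7 with the replicate block and 1 among genes detected in both groups, and those lower were 2 with RLE factors, library sizes alone, a minimum count of 50, DESeq2 or Rn45s left out and 0 in the others named; with 1 library left out, 16 to 40 were higher and 0 to 3 lower. Over all 13122 tested genes, against 2493 higher and 461 lower, 3564 were higher and 918 lower in DESeq2. In limma-voom 24 were higher and 320 lower, so more genes were lower than higher there. With the replicate block 188 were higher and 135 lower, and among genes detected in both groups 52 and 146. With 1 library left out, 2190 to 4585 were higher and 247 to 839 lower. The fit of genes detected in both groups tests fewer genes, and for the others the cause was not tested. Same-numbered WT and Fyn-KO libraries did not deviate together (correlations -0.0142, -0.000155 and -0.0205 over genes), so the replicate block pairs libraries by number alone. Tgfb1 had 43 counts in all libraries together and was below the filter on low counts over all 7 libraries. It was tested with no filter and without WT replicate 1, 2 or 3, and was called in none of these fits.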
